A study of Homo sapiens with 6 samples.

Results

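The RAB genes, which encode the largest branch of the RAS-like small GTPases, were followed in HEK293 cells treated with the quinolinol compound B23 or with its solvent DMSO. HEK293 is an established human line from embryonic kidney. A gene counted as a member when its symbol was RAB followed by a number and at most a letter and a digit, so that proteins that bind RABs were left out. There were 52 members among 15496 listed genes, all protein-coding with 1 gene identifier each, and 10 other human RAB symbols were not analysed here. Both groups were HEK293 cells grown in RPMI medium with serum. The control group held 3 libraries of cells given DMSO and the treated group held 3 libraries of cells given B23, for which the labels state neither dose nor time. Polyadenylated RNA was measured as CPM, read counts that the authors scaled by library. The listed genes held 40950318 to 47444126 reads per library, as recovered from the CPM. Nothing in the labels says that the triplicates were separate cultures, and the p-values therefore reflect only how these libraries varied, which may be technical. In bulk RNA a lower level from fewer cells with a transcript and one from less of it per cell cannot be told apart.

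A RAB protein is a switch that directs membrane traffic. An exchange factor loads it with GTP on the membrane of its compartment, where it recruits effectors that tether, move or fuse vesicles, and a GTPase activating protein, often with a TBC domain, turns it off. The RAB itself is held on membranes by lipid tails added by geranylgeranyl transferase with the help of an escort protein, and GDI extracts it again for reuse. Each compartment has its own RABs, and many of them exist as pairs or small families of close paralogs.

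All 7 genes set as markers of HEK293 cells were listed, and they moved both ways. Their summed level ran from 455.2 to 464.7 CPM with DMSO and from 372.8 to 380.8 CPM with B23 (means ± SD, n = 3, follow). LIN28B went from 106.1 ± 2.16 to 134.8 ± 0.544 CPM and INA from 54.0 ± 1.49 to 75.2 ± 0.816 CPM, while NEFL went from 133.1 ± 5.75 to 75.2 ± 1.86, NEFM from 106.6 ± 6.57 to 66.2 ± 0.686, SALL2 from 27.0 ± 0.692 to 19.6 ± 1.18, MYCN from 27.3 ± 0.846 to 3.71 ± 0.518 and PAX2 from 5.85 ± 0.712 to 1.38 ± 0.204 CPM. None of 3 hepatocyte markers was listed, and 1 of 4 was listed for each of blood cells, fibroblasts and melanocytes, namely CD14, DCN and PMEL, each under 3 CPM. Melanocytes were included because RAB27A, RAB32 and RAB38 are known for the transport of their pigment granules, and of their markers PMEL was at 2.35 ± 0.21 CPM with DMSO and at 1.22 ± 0.15 CPM with B23 while MLANA, TYR and DCT had no row. The part of these markers in any RAB result was not tested.

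The RAB transcripts differed between B23 and DMSO in both directions, in small steps and in shares close to those of all tested genes. Of the 50 members with a mean of at least 1 CPM, 19 were higher in B23, 23 were lower and 8 were not called, in limma on log2(CPM + 0.5) with Benjamini-Hochberg adjustment over all tested genes at 0.05. That is 84.0% of the members called, beside 88.6% of the 14792 tested genes. The same genes gave 39.6% called higher and 49.0% called lower, against 38% and 46% of the RABs. With the listed genes scaled to a common total 14 RABs were higher and 33 lower, and with median-of-ratios scaling 24 were higher and 19 lower, so the balance of directions depended on the scaling. Values of the treated and control libraries were fully separate in 42 members, beside 88.9% of all tested genes. The median log2 difference was -0.045 for the RABs and -0.10 for all tested genes.

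Large changes were few. Only RAB30 and RAB5A were called and at least 1 log2 unit higher, and only RAB27B and RAB40B were called and at least 1 log2 unit lower, in the fit on the deposited CPM. These 4 members are 8.0% of the RABs tested, while 25.5% of all tested genes moved that far (9.65% higher and 15.8% lower). The count depended on the pseudocount, since with 0.1 RAB20 (-1.08) and RAB36 (-1.02) passed 1 log2 unit too, which made 12% of the RABs beside 27.5% of all tested genes, and with 2 the shares were 6% and 18.7%. The median size of the log2 difference, taken without its sign, was 0.43 for the RABs and 0.58 for all tested genes. The summed level of the 52 members was 1889, 1929 and 1914 CPM with DMSO and reached 2223, 2206 and 2231 CPM with B23, 1.16-fold higher by means, while the sum over every listed gene was 745216 to 753745 CPM in the controls and 890367 to 900113 CPM with B23.

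**Figure D1:**
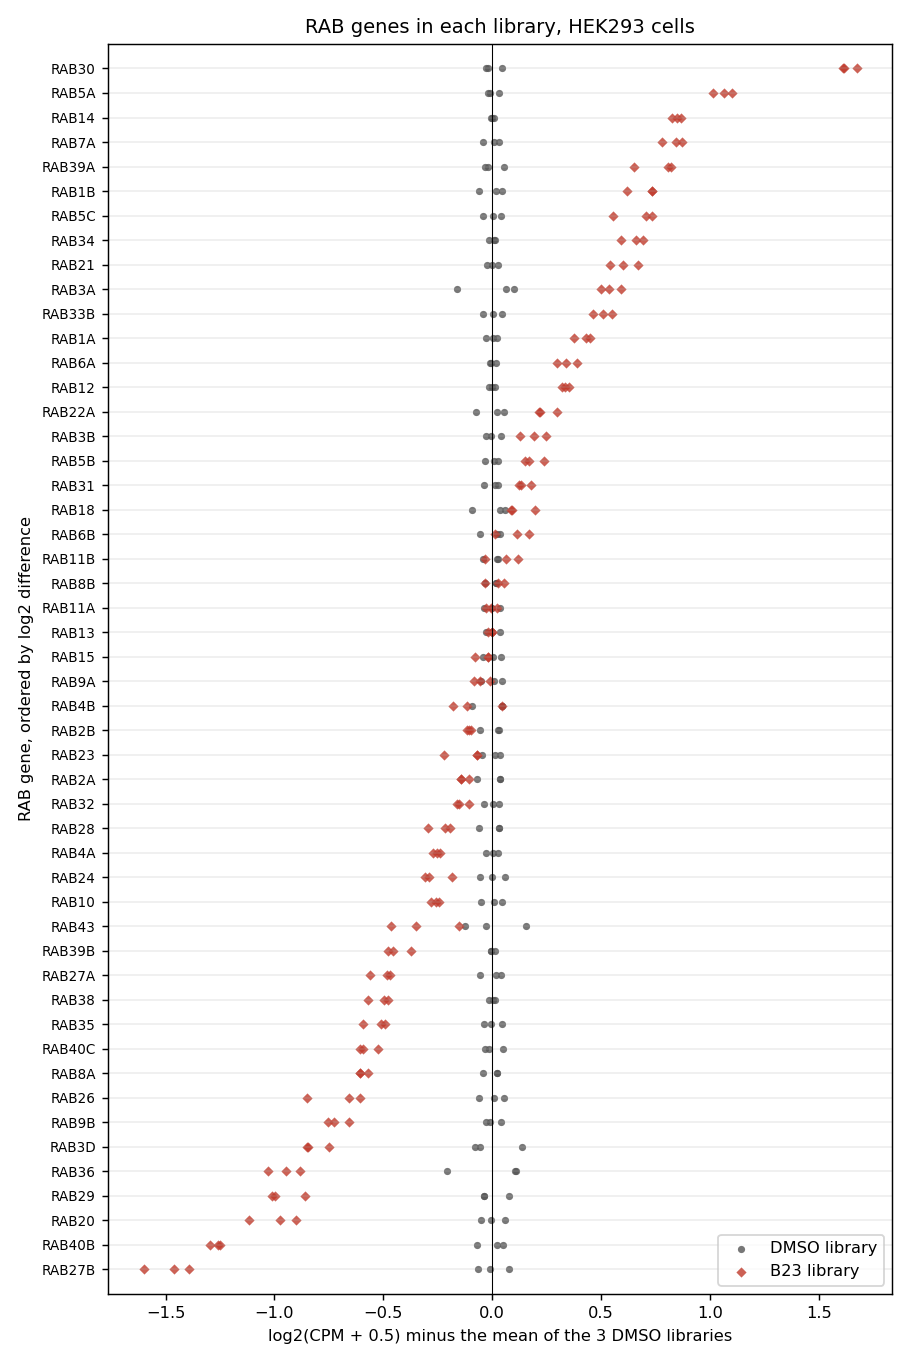
Each row is 1 RAB gene with a mean of at least 1 CPM and each point is 1 library, drawn as log2(CPM + 0.5) minus the mean of the 3 DMSO libraries. Grey circles are DMSO and red diamonds are B23. The B23 libraries lie apart from the DMSO libraries for most genes, from RAB30 at the top (log2 difference 1.63) to RAB27B at the bottom (-1.48), and overlap them in the middle, as for RAB11A.

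The largest rise was that of RAB30, a Golgi RAB. It was at 14.7, 14.0 and 14.1 CPM with DMSO and at 44.5, 46.5 and 44.7 CPM with B23. The 3 B23 values lay far above the DMSO values and close to each other. By means this was 3.18-fold, with a log2 difference of 1.63 (SE 0.045, limma adjusted p = 1.43e-20). RAB30 (ENSG00000137502.9) lies on the minus strand of chromosome 11 from 82973133 to 83071923 in GRCh38.

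RAB5A, the switch of early endosome fusion, had the next largest rise. Its levels were 48.7, 50.5 and 49.0 CPM in DMSO and 103.6, 106.5 and 100.2 CPM in B23, so that every B23 library lay well above every DMSO library. The fold was 2.09 and the log2 difference 1.06 (SE 0.036, limma adjusted p = 1.01e-18). RAB5A (ENSG00000144566.10) lies on the plus strand of chromosome 3 from 19947079 to 19985175.

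Among the falls, RAB27B had the largest log2 difference. RAB27B, a RAB of secretory granules and exosome release, is described although its mean is under 5 CPM, and it was chosen after its values were seen. It was at 4.69, 4.19 and 4.37 CPM in DMSO and at 1.12, 1.37 and 1.28 CPM in B23, 3.51-fold lower by means (log2 difference -1.48, SE 0.092, limma adjusted p = 1.58e-13). RAB40B, one of the RABs with a SOCS box that recruits a cullin ubiquitin ligase, was at 17.3, 17.6 and 16.2 CPM in DMSO and at 6.83, 6.63 and 6.88 CPM in B23. All 3 B23 values of either gene lay below all DMSO values, and RAB40B was 2.51-fold lower (log2 difference -1.27, SE 0.059, limma adjusted p = 5.31e-16). RAB27B (ENSG00000041353.9) lies on the plus strand of chromosome 18 from 54717860 to 54895516 and RAB40B (ENSG00000141542.10) on the minus strand of chromosome 17 from 82654973 to 82698728.

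The windows around the starts of these 4 genes are shown because the genes had the largest changes in each direction. They are 300 bases each from RefSeq on GRCh38.p14, most of them upstream of the start, at chr11:83071848-83072147 on the minus strand for RAB30, chr3:19946847-19947146 on the plus strand for RAB5A, chr18:54717607-54717906 on the plus strand for RAB27B and chr17:82698649-82698948 on the minus strand for RAB40B. They are written 5′ to 3′ along the gene, with ACGTG and GCGTG, the cores of the hypoxia response element, in capitals on either strand (CACGT and CACGC as printed where the core is on the other strand).
RAB30: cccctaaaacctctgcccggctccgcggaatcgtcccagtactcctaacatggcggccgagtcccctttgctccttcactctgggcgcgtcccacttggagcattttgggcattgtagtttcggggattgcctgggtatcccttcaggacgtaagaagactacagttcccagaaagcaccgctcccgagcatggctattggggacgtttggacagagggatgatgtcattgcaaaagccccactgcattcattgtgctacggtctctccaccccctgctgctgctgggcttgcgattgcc
RAB5A: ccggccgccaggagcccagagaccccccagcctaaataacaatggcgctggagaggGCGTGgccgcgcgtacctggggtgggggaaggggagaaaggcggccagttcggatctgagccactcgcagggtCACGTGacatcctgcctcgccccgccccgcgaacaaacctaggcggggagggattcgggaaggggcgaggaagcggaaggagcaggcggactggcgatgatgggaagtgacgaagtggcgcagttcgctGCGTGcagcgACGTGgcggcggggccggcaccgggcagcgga
RAB27B: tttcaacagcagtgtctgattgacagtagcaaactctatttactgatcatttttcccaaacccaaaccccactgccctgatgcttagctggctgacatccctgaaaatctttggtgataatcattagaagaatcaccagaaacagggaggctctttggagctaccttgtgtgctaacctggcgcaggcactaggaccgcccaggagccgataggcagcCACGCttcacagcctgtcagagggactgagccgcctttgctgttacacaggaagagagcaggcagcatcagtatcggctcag
RAB40B: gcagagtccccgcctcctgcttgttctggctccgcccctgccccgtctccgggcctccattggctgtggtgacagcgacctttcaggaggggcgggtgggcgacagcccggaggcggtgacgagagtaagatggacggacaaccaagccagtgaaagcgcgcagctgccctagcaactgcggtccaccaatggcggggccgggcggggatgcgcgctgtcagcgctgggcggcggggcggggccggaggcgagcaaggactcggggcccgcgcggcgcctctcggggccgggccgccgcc
The RAB5A window held 3 matches to ACGTG and 2 to GCGTG on both strands together. A pair of the ACGTG matches lay on opposite strands in 1 copy of the E-box palindrome CACGTG, which always contains ACGTG. The RAB27B window held 1 match to GCGTG, and no match was found in the RAB30 and RAB40B windows. GC content was 57.3% in the RAB30 window, 69.3% in RAB5A, 51.0% in RAB27B and 73.7% in RAB40B. RefSeq windows were matched for 42 of the 52 members. ACGTG was found in 7 of 16 windows of members called higher and in 7 of 17 of members called lower, or 43.8% and 41.2%, beside 26.8% of the 10575 tested genes with a window and 21.6% of all 27305 windows. GCGTG was found in 43.8% and 35.3% of these members, beside 51.8% of tested genes and 36.3% of all windows, and CACGTG in 18.8% and 17.6%, beside 10.3% and 7.43%. Of the 7 windows of members not called, ACGTG was in 14.3%, GCGTG in 57.1% and CACGTG in 0%. These shares rest on few windows and their differences were not tested, and a match shows letters in a window, not a bound site.

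Of 10 RABs of the endoplasmic reticulum and Golgi apparatus 6 rose, 3 fell and RAB6B, which overlaps SRPRB, did not pass the test. That is 60% higher and 30% lower beside 39.6% and 49.0% of all tested genes, with a median log2 difference of 0.23, and the summed level of the class went from 412.1 ± 6.81 to 544.7 ± 1.37 CPM (SD, n = 3). Here and for the other classes the comparison with all tested genes was not matched for level, which is taken up below. RAB1B, which acts in transport from the endoplasmic reticulum to the Golgi, was at 80.0, 86.2 and 84.4 CPM in DMSO and at 139.3, 128.5 and 139.1 CPM in B23, 1.62-fold higher with no overlap (log2 difference 0.70, SE 0.038). Its paralog RAB1A, which overlaps CEP68, rose 1.34-fold from 57.5 ± 1.03 to 77.0 ± 2.07 CPM. RAB33B, a Golgi RAB that binds the autophagy protein ATG16L1, rose 1.43-fold from 19.5 ± 0.609 to 27.9 ± 0.862 CPM. RAB6B, the neuronal paralog of RAB6A, was at 19.5 ± 0.688 and 20.95 ± 1.14 CPM (log2 difference 0.098, limma adjusted p = 0.0743). It was called higher with TMM (0.18), median-of-ratios scaling (0.20), quantile normalization (0.30), edgeR (0.17) and DESeq2 (0.20) and without B23 replicate 2 (0.14, limma adjusted p = 0.0153). Listed-gene total scaling called it lower (-0.15).

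RAB6A, which drives retrograde transport through the Golgi, rose 1.27-fold from 92.8 ± 0.911 to 117.8 ± 3.59 CPM, a call that was lost with quantile normalization (log2 difference -0.022, adjusted p = 0.532). RAB6C, a near-identical copy of RAB6A, was not analysed here, and the assignment of reads shared with it was not stated. RAB18, found on the endoplasmic reticulum and lipid droplets, rose 1.09-fold from 34.8 ± 1.98 to 37.9 ± 1.68 CPM. That call did not hold without DMSO replicate 1 (log2 difference 0.077, limma adjusted p = 0.12), without B23 replicate 2 (0.089, adjusted p = 0.0877) or with plain empirical Bayes (adjusted p = 0.0576). With listed-gene total scaling RAB18 was called lower (-0.12). RAB2A and RAB2B, which act between the endoplasmic reticulum and the Golgi, were 1.10-fold and 1.08-fold lower, and RAB43 was 1.33-fold lower at 2.18 ± 0.271 and 1.64 ± 0.239 CPM. RAB43 shares exons with the readthrough gene ISY1-RAB43. These 3 falls were lost under other settings. For RAB2A that happened with TMM and median-of-ratios scaling, edgeR and DESeq2. RAB2B, which overlaps TOX4, lost it with the same settings, with quantile normalization (0.060) and without DMSO replicate 1 or 3 or any 1 of the 3 B23 libraries (log2 difference -0.11 to -0.091, adjusted p = 0.0541 to 0.103 in limma), and RAB43 without DMSO replicate 3 (-0.25, adjusted p = 0.0506 in limma) and with DESeq2. With quantile normalization RAB43 was called higher (0.25).

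All 3 paralogs of RAB5 were higher in B23 with the deposited scaling, by unequal amounts. RAB5C was at 69.6, 67.5 and 71.5 CPM in DMSO and at 113.8, 102.3 and 116.0 CPM in B23, 1.59-fold higher with no overlap (log2 difference 0.66, SE 0.042), and it shares exons with AC099811.2. RAB5B was at 67.6, 69.6 and 70.4 CPM in DMSO and at 76.8, 77.9 and 81.6 CPM in B23, 1.14-fold higher, and its direction turned with listed-gene total scaling (-0.067) and quantile normalization (-0.052). Per kilobase of merged exons RAB5C was highest in both groups, at 25.2 ± 0.715 and 40.1 ± 2.67 CPM per kb.

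RAB21, which escorts integrins through early endosomes, rose 1.53-fold from 35.0 ± 0.577 to 53.5 ± 2.37 CPM. The paralogs RAB22A and RAB31 rose 1.19-fold and 1.11-fold. With listed-gene total scaling RAB22A was not called (-0.0055). RAB31 was called lower with listed-gene total scaling (-0.11) and with quantile normalization (-0.21). RAB20 went the other way. It is an endosomal and phagosomal RAB known from other cells as a hypoxia-induced gene, and it was at 7.17, 6.61 and 6.83 CPM in DMSO and at 3.25, 2.89 and 3.45 CPM in B23, all B23 values being under all DMSO values. It fell 2.15-fold (log2 difference -0.998, SE 0.079, limma adjusted p = 2.04e-11). Of the 7 tested RABs of early endosomes 6 rose and 1 fell, or 85.7% and 14.3% beside 39.6% and 49.0% of all tested genes, with a median of 0.24, and the summed level of the class went from 359.6 ± 3.19 to 495.5 ± 4.47 CPM. RAB17, an epithelial RAB, was left out of the test with 1 to 3 reads per DMSO library and 1 read in each B23 library.

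Among RABs of endosomal recycling 1 of 7 rose, 2 fell and 4 were not called. That is 14.3% higher and 28.6% lower, beside 39.6% and 49.0% of all tested genes. The summed level went from 333.9 ± 4.65 to 358.7 ± 1.91 CPM, 1.07-fold by means, and the sum over every listed gene was higher with B23 too, as given above. RAB14, which acts between endosomes and the Golgi, was at 64.3, 64.8 and 64.1 CPM in DMSO and at 117.9, 116.4 and 114.3 CPM in B23, 1.80-fold higher with no overlap (log2 difference 0.85, SE 0.033, limma adjusted p = 1.96e-17). RAB35, a RAB of fast recycling and actin regulation, was at 52.0, 53.2 and 55.1 CPM in DMSO and at 37.8, 35.2 and 37.4 CPM in B23, 1.45-fold lower with no overlap (log2 difference -0.53, SE 0.040), and it shares exons with AC004812.2 on the opposite strand. RAB4A, a RAB of fast recycling, fell 1.20-fold from 62.6 ± 1.29 to 52.4 ± 0.656 CPM.

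The other 4 recycling members were not called, and their groups overlapped. RAB11A, the RAB of the recycling endosome, was at 93.9, 96.3 and 98.7 CPM in DMSO and at 94.4, 97.6 and 95.7 CPM in B23 (log2 difference -0.0053, SE 0.034, limma adjusted p = 0.885). It was called higher with TMM (0.075), median-of-ratios scaling (0.10) and DESeq2 (0.096), and with listed-gene total scaling (-0.26) and quantile normalization (-0.35) lower, with adjusted p between 9.21e-09 and 0.93 across all settings. RAB11B, which overlaps RAB11B-AS1 on the opposite strand, was at 31.8 ± 0.844 and 32.9 ± 1.74 CPM (log2 difference 0.049), and it was called higher with TMM (0.13), median-of-ratios scaling (0.16), edgeR (0.12) and DESeq2 (0.15) and lower with listed-gene total scaling (-0.20). RAB15 was at 18.9 ± 0.526 and 18.3 ± 0.47 CPM. RAB4B, which shares exons with RAB4B-EGLN2 and MIA-RAB4B, was at 6.60 ± 0.382 and 6.20 ± 0.543 CPM. Both were called lower with listed-gene total scaling (-0.29 and -0.32), and with quantile normalization both were called higher (0.20 and 0.37).

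RABs of late endosomes, lysosomes and lysosome-related organelles moved both ways. Of 10 tested members 3 rose, 6 fell and 1 was not called, with a median of -0.20. That is 30% higher and 60% lower, beside 39.6% and 49.0% of all tested genes. The summed level went from 379.0 ± 0.656 to 449.9 ± 7.14 CPM, 1.19-fold by means, and the sum over every listed gene was higher with B23 too, as given above. RAB7A, which drives the maturation of late endosomes and their fusion with lysosomes, was at 119.0, 123.3 and 125.2 CPM in DMSO and at 220.2, 210.6 and 224.4 CPM in B23, with no overlap. It rose 1.78-fold (log2 difference 0.83, SE 0.035, limma adjusted p = 5.57e-17), which took it from rank 2 to rank 1 among the RABs by CPM per kilobase of merged exons, from 45.1 ± 1.17 to 80.4 ± 2.61 CPM per kb. RAB12, which acts in transport from recycling endosomes to lysosomes, rose 1.27-fold from 30.5 ± 0.306 to 38.7 ± 0.473 CPM. RAB39A, a RAB of late endosomes and phagosomes, was at 5.97, 6.36 and 6.04 CPM in DMSO and at 11.2, 11.1 and 9.89 CPM in B23, 1.75-fold higher with no overlap (log2 difference 0.76, SE 0.067).

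The falls of this class included RAB29, a trans-Golgi and lysosomal RAB that recruits the kinase LRRK2. It was at 34.2, 31.5 and 31.5 CPM in DMSO and at 15.8, 15.96 and 17.6 CPM in B23, 1.97-fold lower with no overlap (log2 difference -0.96, SE 0.051, limma adjusted p = 7.86e-15). RAB38, a RAB of melanosomes and lamellar bodies, was 1.47-fold lower at 8.55 ± 0.0946 and 5.84 ± 0.218 CPM, a call lost with quantile normalization (-0.078, adjusted p = 0.254 in limma). RAB32, of the same organelles and of mitochondria, was at 59.5 ± 1.49 and 53.9 ± 1.12 CPM. Its call, a 1.10-fold fall, was lost with TMM and median-of-ratios scaling, edgeR and DESeq2. RAB9B fell 1.80-fold from 3.59 ± 0.105 to 1.99 ± 0.0838 CPM, and RAB24, an atypical RAB linked to autophagy that shares exons with MXD3, fell 1.20-fold from 43.9 ± 1.80 to 36.6 ± 1.70 CPM. RAB9A, which returns mannose 6-phosphate receptors to the Golgi, overlapped between groups at 62.3 ± 2.03 and 60.1 ± 1.56 CPM, and it was called lower with listed-gene total scaling (-0.30) and quantile normalization (-0.24). RAB7B was not tested, with 4 to 10 reads in the DMSO libraries and 6 to 20 in the B23 libraries.

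Of 10 RABs of exocytosis and secretory vesicles 6 fell, 2 rose and 2 were not called, or 60% lower and 20% higher beside 49.0% and 39.6% of all tested genes, with a median log2 difference of -0.38, and the summed level of the class went from 296.8 ± 5.57 to 245.4 ± 0.666 CPM. RAB8A, a RAB of post-Golgi and ciliary transport, was at 70.0, 69.8 and 66.8 CPM in DMSO and at 45.0, 46.2 and 45.0 CPM in B23, 1.52-fold lower with no overlap (log2 difference -0.60, SE 0.037, limma adjusted p = 1.32e-13). RAB10, which acts in the insulin-regulated insertion of glucose transporters into the plasma membrane, fell 1.20-fold from 110.9 ± 3.68 to 92.4 ± 1.17 CPM. RAB26, a RAB of secretory granules, fell 1.71-fold from 6.22 ± 0.267 to 3.63 ± 0.365 CPM.

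RAB27A, which docks secretory lysosomes and melanosomes, was 1.45-fold lower at 9.90 ± 0.356 and 6.83 ± 0.25 CPM, a call lost with quantile normalization (-0.081, adjusted p = 0.232 in limma), and it shares exons with PIGB and PIGBOS1. RAB8B was at 23.3 ± 0.482 and 23.5 ± 0.758 CPM and RAB13, a RAB of tight junctions, at 39.6 ± 0.885 and 39.3 ± 0.248 CPM, with overlapping groups in both. RAB8B was called higher with median-of-ratios scaling (0.12), quantile normalization (0.17) and DESeq2 (0.12) and lower with listed-gene total scaling (-0.23). RAB13 was called higher with median-of-ratios scaling (0.10) and lower with listed-gene total scaling (-0.26). RAB13 shares exons with AL358472.6. The RAB3 paralogs, the RABs of synaptic and other regulated secretory vesicles, went in different directions. RAB3A was at 3.34, 3.24 and 2.70 CPM in DMSO and at 4.57, 4.70 and 4.89 CPM in B23, 1.53-fold higher with no overlap, and it overlaps MPV17L2 on the opposite strand. RAB3D was at 10.6, 12.2 and 10.4 CPM in DMSO and at 6.36, 5.89 and 5.92 CPM in B23, 1.83-fold lower with no overlap, and it overlaps TMEM205 and CCDC159. RAB3B was at 19.1, 19.4 and 20.05 CPM in DMSO and at 21.3, 23.2 and 22.3 CPM in B23. That 1.14-fold rise turned to -0.058 with listed-gene total scaling.

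Of 4 RABs set in the cilium class 1 rose and 3 fell, or 25% and 75% beside 39.6% and 49.0% of all tested genes. The class held RAB36 beside its paralog RAB34, and a role of RAB36 in cilia was not tested. RAB34, which acts early in the building of the cilium, was at 38.4, 37.6 and 38.2 CPM in DMSO and at 60.4, 57.6 and 61.8 CPM in B23, 1.58-fold higher with no overlap (log2 difference 0.65, SE 0.039). Its paralog RAB36 was at 8.79, 8.76 and 6.96 CPM in DMSO and at 3.98, 4.17 and 3.73 CPM in B23, 2.06-fold lower with no overlap (log2 difference -0.95, SE 0.084). RAB23, a regulator of Hedgehog signalling that overlaps BAG2, was at 27.9 ± 0.828 and 25.6 ± 1.56 CPM. This 1.09-fold fall was no longer called without DMSO replicate 2 (-0.10, limma adjusted p = 0.0883) or B23 replicate 1 (-0.071, adjusted p = 0.187), or with TMM, median-of-ratios scaling, quantile normalization, plain empirical Bayes, edgeR and DESeq2. RAB28, a RAB of the photoreceptor cilium, was 1.18-fold lower at 20.9 ± 0.785 and 17.7 ± 0.652 CPM, a call lost with quantile normalization (-0.019, adjusted p = 0.731 in limma). Both SOCS box RABs fell, beside 49.0% of all tested genes, and their sum went from 34.1 ± 1.11 to 18.1 ± 0.458 CPM. RAB40B is given above. RAB40C went from 16.7, 17.7 and 16.9 CPM in DMSO to 11.2, 11.04 and 11.8 CPM in B23, 1.51-fold lower with no overlap (log2 difference -0.58, SE 0.054). RAB40C shares exons with WFIKKN1.

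**Figure D2:**
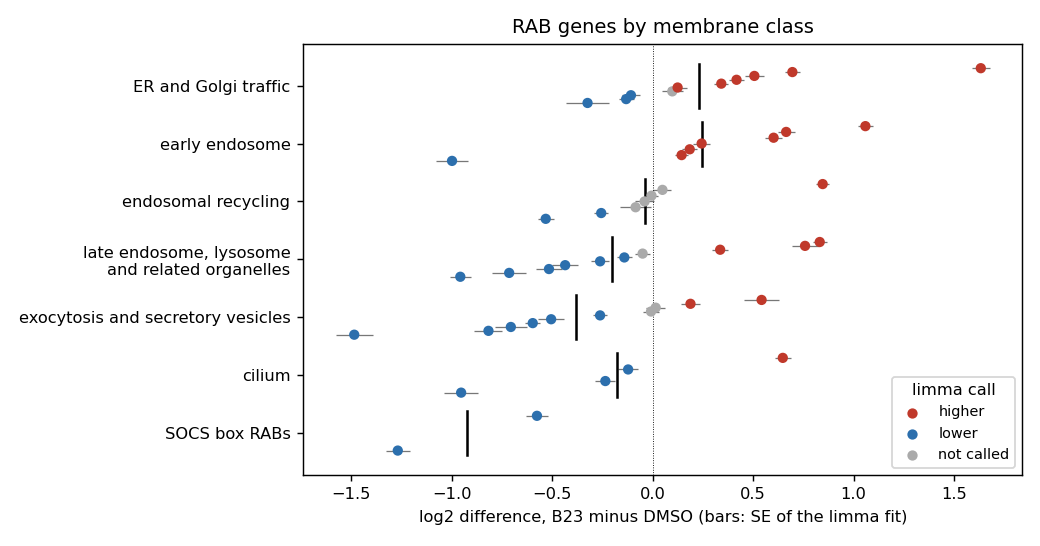
Each point is 1 RAB gene, placed by its log2 difference (B23 minus DMSO, bars the SE of the limma fit) within its membrane class, with the class median as a black line and colour for the limma call. Class medians run from 0.24 in early endosomes and 0.23 in the endoplasmic reticulum and Golgi class to -0.38 in exocytosis and -0.92 in the SOCS box pair, and every class with more than the SOCS box pair holds members on both sides of 0. The classes were not matched for level.

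The paralogs of a family were compared as the log2 ratio of their (CPM + 0.5) within each library, which a common scaling of the library leaves nearly unchanged. These ratios are not corrected for gene length, so their sign does not show which paralog was more abundant. There were 21 pairs with both genes tested, and in 18 of them the 3 B23 ratios did not overlap the 3 DMSO ratios. Levels of single genes were fully separate between the groups for 88.9% of all tested genes. Pairs of other genes were not compared, so whether the RAB pairs stand out was not tested. For these 18 pairs a two-sided exact permutation test gave p = 0.1, the smallest that 3 libraries against 3 allow, and 0.117 after adjustment over the 21 pairs, so no pair could pass 0.05 by this test.

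The balance shifted most between RAB34 and RAB36. Their log2 ratio was 2.06, 2.04 and 2.38 with DMSO and 3.77, 3.64 and 3.88 with B23, so that RAB34 gained on RAB36 by 1.60 log2 units. The log2 ratio of RAB3A to RAB3D was -1.69 ± 0.137 in DMSO and -0.33 ± 0.0966 in B23, a gain of 1.36 (SD, n = 3). RAB39A and RAB39B had a log2 ratio of -0.63, -0.57 and -0.62 in DMSO and of 0.67, 0.57 and 0.52 in B23. Per kilobase of merged exons RAB39A was above RAB39B in both groups. The levels were 3.35 and 2.73 CPM per kb in DMSO and 5.86 and 1.99 CPM per kb in B23. RAB39B, a neuronal and endosomal RAB, was at 9.53, 9.67 and 9.53 CPM in DMSO and at 6.85, 7.28 and 6.74 CPM in B23, and its own fall was lost with quantile normalization (-0.019, adjusted p = 0.774 in limma). RAB27A gained 0.98 on RAB27B.

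Within the RAB5 family the log2 ratio of RAB5A to RAB5B was -0.47, -0.46 and -0.52 in DMSO and 0.43, 0.45 and 0.29 in B23. RAB5A gained 0.87 on RAB5B and 0.39 on RAB5C, and the ratio of RAB5B to RAB5C changed by -0.48. RAB40B and RAB40C had ratios close to 0 in DMSO (-0.0062 ± 0.0558) and -0.70 ± 0.0311 in B23. The log2 ratio of RAB8A to RAB8B was 1.55, 1.55 and 1.54 in DMSO and 0.91, 0.92 and 0.97 in B23, a change of -0.61. The ratio of RAB29 to RAB32 changed by -0.82 and that to RAB38 by -0.44, and RAB9A gained 0.66 on RAB9B. In 3 pairs the groups overlapped, which were RAB2A and RAB2B (-0.024, exact permutation p = 0.8, adjusted 0.8), RAB11A and RAB11B (-0.054, exact permutation p = 0.4, adjusted 0.42) and RAB22A and RAB31 (0.10, exact permutation p = 0.3, adjusted 0.332).

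**Figure D3:**
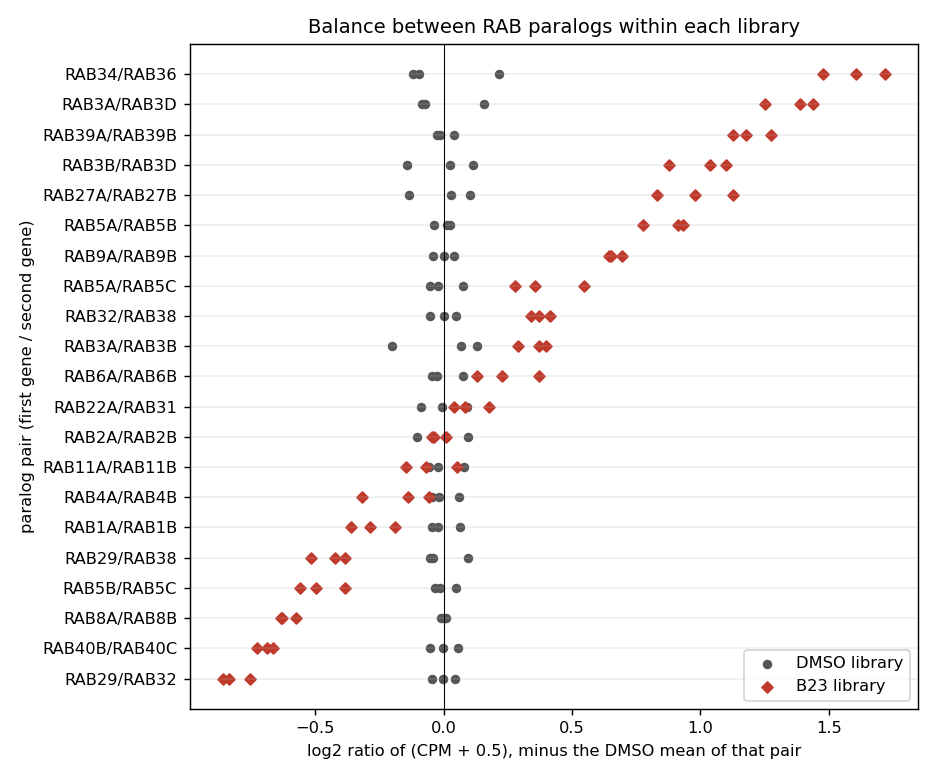
Each row is 1 of 21 paralog pairs and each point 1 library, drawn as the log2 ratio of (CPM + 0.5) of the first to the second gene minus the DMSO mean of that pair. Grey circles are DMSO and red diamonds are B23. The groups are apart in 18 pairs, from a gain of 1.60 for RAB34 over RAB36 to a change of -0.82 for RAB29 against RAB32, and overlap in the other 3. Pairs of other genes were not compared.

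Abundant RABs rose in a larger share than scarce ones, and all tested genes showed the same order. By the DMSO mean, an ordering added after the data were seen, 7 of 13 members at 60 CPM or more rose and 4 fell, and of 12 members at 1 to 10 CPM 2 rose and 9 fell. The median log2 differences of these bins were 0.14 and -0.51, beside 0.13 and -0.43 over the 3239 and 4047 tested genes of the same DMSO levels. Of those tested genes 52.9% rose and 36.5% fell at 60 CPM or more, and 24.5% rose and 60.1% fell at 1 to 10 CPM. By the mean of all 6 libraries, to which B23 itself contributes, 9 of 13 members at 60 CPM or more rose and 2 fell, and of 13 at 1 to 10 CPM 2 rose and 10 fell. All tested genes of these bins gave 65.9% higher and 24.5% lower at 60 CPM or more, and 19.6% and 66.1% at 1 to 10 CPM. RAB5A and RAB1A reached 60 CPM only with the B23 libraries counted, and RAB8A and RAB4A only without them. The membrane classes differed in level. By the mean of all 6 libraries, the early endosome RABs that rose were at 36.7 to 101.0 CPM, and RAB20, which fell, was at 5.03 CPM. In the exocytosis class RAB26, RAB27A, RAB27B and RAB3D, which fell, and RAB3A, which rose, were under 10 CPM. Whether the class shares differ from those of genes of the same level was not tested. Across the 50 tested members Spearman's rank correlation with the log2 difference was 0.39 for the DMSO mean and 0.53 for the mean of all 6 libraries, and it was 0.22 and 0.43 across 13209 tested coding genes. These points share the same 6 libraries, and genes are not independent replicates. The correlation with the largest number of exons in a transcript was 0.029 for the RABs and 0.30 for the coding genes, and that with the gene's span was 0.11 and 0.145.

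**Figure D4:**
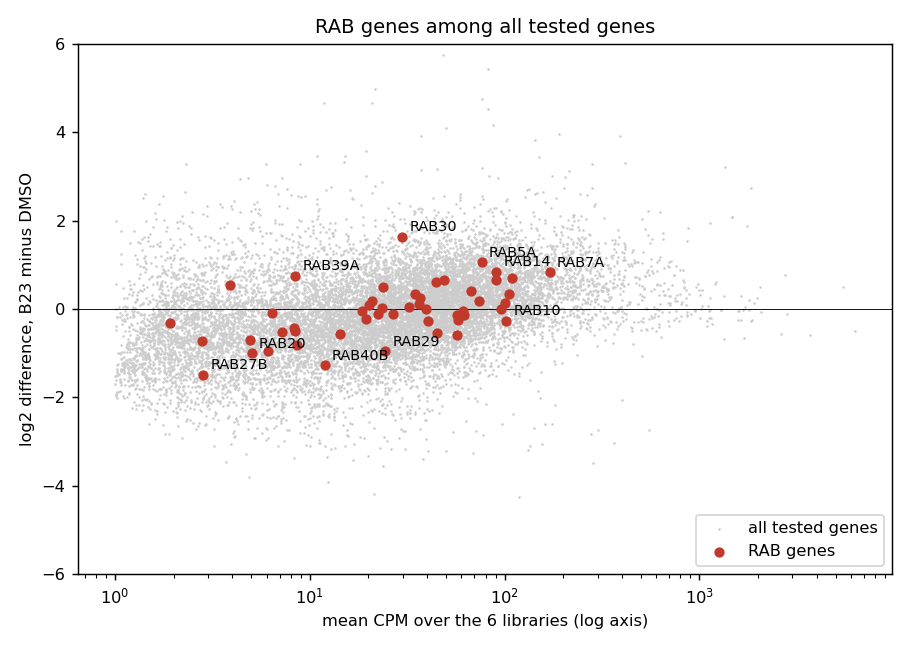
Each red point is 1 RAB gene and each grey point 1 of 14792 tested genes, placed by the mean CPM over the 6 libraries (log axis) and the log2 difference, B23 minus DMSO. Both sets tilt upward to the right, with a Spearman rank correlation of 0.53 for the RABs, and the RABs stay between -1.48 and 1.63.

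By CPM per kilobase of merged exons, a length that overstates that of a gene with many alternative exons, RAB32, RAB7A and RAB1B were the most abundant RABs in DMSO. RAB32 made up 8.80% ± 0.268 of the summed RAB level per kilobase in DMSO and 6.85% ± 0.107 in B23. RAB7A went from 8.11% ± 0.166 to 12.4% ± 0.253 and RAB1B from 7.49% ± 0.217 to 10.4% ± 0.346 (SD, n = 3). RAB10 was next with 5.49% ± 0.132 in DMSO and 3.94% ± 0.0185 in B23, followed in DMSO by RAB9A with 5.29% ± 0.199, whose spread overlaps that of RAB10. RAB30 moved from rank 47 to rank 33 of 52 and RAB40B from rank 37 to rank 46.

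Genes that load, recycle and answer to RABs moved in both directions too. The 4 lists of such genes, for prenylation and membrane extraction, exchange factors, GTPase activating proteins and effectors, held 126 tested genes, of which 52 rose, 58 fell and 16 were not called, with a median log2 difference of -0.029. That is 87.3% called, 41.3% higher and 46.0% lower, close to the 88.6%, 39.6% and 49.0% of all tested genes. With listed-gene total scaling 35 rose and 75 fell, and with median-of-ratios scaling 62 rose and 51 fell. Of 9 genes for prenylation and extraction 6 rose and 3 fell. RABGGTB, the catalytic subunit of the geranylgeranyl transferase, rose 2.86-fold from 41.4 ± 1.17 to 118.4 ± 2.97 CPM and shares exons with ACADM. GDI2, which extracts RABs from membranes, rose 1.59-fold from 97.4 ± 4.58 to 155.1 ± 3.88 CPM. RABIF, a chaperone of nucleotide-free RABs, fell 2.13-fold from 25.5 ± 1.14 to 11.9 ± 0.661 CPM. RABAC1, a membrane protein that binds prenylated RABs, fell 2.11-fold and shares exons with AC010616.2. The escort protein gene CHML, which shares exons with OPN3, was at 36.8 ± 2.12 and 33.6 ± 1.42 CPM, a fall no longer called without DMSO replicate 1 (-0.084, limma adjusted p = 0.0999), without B23 replicate 1 (-0.094, adjusted p = 0.0913) or with TMM and median-of-ratios scaling, edgeR and DESeq2.

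Of 36 exchange factor genes 12 rose, 17 fell and 7 were not called, or 33.3% higher and 47.2% lower beside 39.6% and 49.0% of all tested genes. MON1B, a subunit of the exchange factor of RAB7, fell 2.39-fold from 71.0 ± 1.51 to 29.6 ± 0.97 CPM, while RAB7A itself rose. MON1A, CCZ1 and CCZ1B, which also encode subunits for RAB7 exchange, were not called (log2 differences 0.12, 0.023 and 0.091). HPS4, a subunit of the exchange factor of RAB32 and RAB38, fell 2.39-fold from 62.3 ± 2.49 to 26.1 ± 0.712 CPM and overlaps ASPHD2. Its partner subunit HPS1 was not called (log2 difference -0.040). SMCR8, the partner of C9orf72, fell 2.26-fold and overlaps SHMT1. DENND5A, an exchange factor for RAB39, rose 2.21-fold from 90.4 ± 2.26 to 199.6 ± 4.51 CPM, RAB3GAP2, a subunit of the exchange factor of RAB18, rose 2.14-fold, and DENND4A, an exchange factor for RAB10 that overlaps SLC24A1, rose 2.08-fold.

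Of 44 effector genes 21 rose, 19 fell and 4 were not called, or 47.7% higher and 43.2% lower beside 39.6% and 49.0% of all tested genes. EEA1, the tether of RAB5 on early endosomes, rose 3.96-fold from 19.2 ± 0.747 to 76.2 ± 1.92 CPM. MICALL2, an effector of RAB13, rose 4.70-fold from 3.85 ± 0.363 to 18.1 ± 0.603 CPM, and OPTN, an effector of RAB8 and autophagy receptor that overlaps CCDC3, rose 3.40-fold from 15.2 ± 0.309 to 51.6 ± 0.343 CPM. RBSN, an effector of RAB4 and RAB5, fell 1.83-fold from 74.4 ± 1.28 to 40.6 ± 1.35 CPM, RAB11FIP2, an effector of RAB11 that overlaps CASC2, fell 1.96-fold, and PLEKHM1, an effector of RAB7, fell 1.99-fold. Of 37 genes on the list of GTPase activating proteins 13 rose, 19 fell and 5 were not called, or 35.1% higher and 51.4% lower. Whether each listed gene encodes an active GTPase activating protein was not tested. TBC1D22B, TBC1D23 and TBC1D22A rose 2.22-fold, 2.18-fold and 2.11-fold. TBC1D13, which acts on RAB35, fell 2.27-fold from 37.7 ± 2.10 to 16.6 ± 0.545 CPM, TBC1D14 fell 2.00-fold and the ciliary gene TBC1D32 fell 1.92-fold.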

How the data were processed

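Per the labels, polyadenylated RNA of 6 HEK293 samples was sequenced from a stranded mRNA kit. The submitters' processing notes name STAR 2.6.1d, SAMtools, HTSeq and edgeR with hg38, without order or settings. Strand setting and gene filter: not given in the sources used here. CPM for 15496 genes were deposited by the authors. All values (100%) were whole multiples of 1 read within 0.001 reads, so reads were recovered. Testing covered 14792 genes whose mean reached 1 CPM, and 704 were left out. The treated and control groups were compared in limma 3.58.1 (R 4.3.3) on log2(CPM + 0.5), with trend and robust empirical Bayes, two-sided, Benjamini-Hochberg adjusted over all tested genes. Differences are on that scale, which understates changes of low genes, and a fold is the ratio of group means of CPM, with SD over 3 libraries. The fit was also run on simulated data in which few genes changed, unlike here, so that run does not bear on the choice of scaling. On the recovered reads, edgeR 4.0.16 called 21 RABs higher and 19 lower and, of all tested genes, 6357 higher and 6787 lower, and DESeq2 1.42.0 was also run. Positions, exon lengths and overlaps came from GENCODE 29, the same assembly as hg38, for all symbols. Exon overlap with a listed gene of at least 10% of the mean is named, and 15 members had one. Values are given per library for the 8 largest rises and 8 largest falls among called members whose mean reached 5 CPM and whose groups were separate, and for families called in opposite directions, while the other members are given by class. From each regulator list up to 3 rises and 3 falls are named, and 1 result that the rule names is not reported here. The members, classes, lists and rules were chosen with earlier results of these data known. Within groups, chi-square over its degrees of freedom was 2.64 to 6.86, above sampling noise. Alternatives covered the pseudocount, filter, scaling, test, replicate block and each library left out.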

Additional observations from a re-analysis of the deposited data

How the results depend on the processing

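Of the 42 called RABs, 27 (13 higher and 14 lower) kept their direction and call under all 18 alternatives, and the counts of RABs called stayed within 1.5 times of 19 and 23. The median of all genes shifted by -0.24 with listed-gene total scaling and by 0.11 with median-of-ratios scaling, and 9 of the other 15 lost a call or direction only with listed-gene total scaling or quantile normalization. The median of the RABs was -0.028 without a filter, -0.0078 at a mean of 5 CPM, 0.034 with TMM, 0.063 with median-of-ratios scaling, -0.29 with listed-gene total scaling, -0.021 with quantile normalization, 0.027 in edgeR and 0.056 in DESeq2, and -0.061 to -0.026 when each library was left out. Relative to the median of all genes it lay at -0.0018 to 0.081.

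Directions turned as follows, as log2 differences. RAB11A, RAB13, RAB15 and RAB9A were at 0.075, 0.071, 0.038 and 0.030 with TMM, at 0.10, 0.10, 0.067 and 0.059 with median-of-ratios scaling, at 0.067, 0.064, 0.031 and 0.022 in edgeR and at 0.096, 0.094, 0.061 and 0.051 in DESeq2, with RAB4B at 0.017 by median-of-ratios and 0.014 in DESeq2. With listed-gene total scaling RAB11B, RAB18, RAB22A, RAB31, RAB3B, RAB5B, RAB6B and RAB8B were at -0.20, -0.12, -0.0055, -0.11, -0.058, -0.067, -0.15 and -0.23. With quantile normalization RAB15, RAB2B, RAB31, RAB43, RAB4B, RAB5B and RAB6A were at 0.20, 0.060, -0.21, 0.25, 0.37, -0.052 and -0.022. When each library was left out, RAB13 ran from -0.023 to 0.0088, RAB11A from -0.023 to 0.012, RAB8B from -0.0046 to 0.040 and the ratio of RAB2A to RAB2B from -0.076 to 0.023 (above 0 without DMSO replicate 2). The cause was not tested.

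The same replicate numbers did not pair the samples, with correlations of their deviations of 0.0256, -0.0703 and -0.0621, and no sample correlated best with its own number. A fit with the replicate number as a block gave 19 RABs higher and 23 lower and changed the call of no RAB. At an adjusted p under 0.01, 18 were higher and 21 lower. RAB17 and RAB7B had at most 20 reads in a library and were not tested, and how depth limits the other low members was not tested. Choices added after seeing the data were the DMSO bins, which gave 4 falls in place of 2 at 60 CPM or more, and the pseudocount for changes of at least 1 log2 unit, which gave 6 and 3 in place of 4.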
